A study of Homo sapiens with 3 samples.

Results

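The HOX cluster genes were taken from the deposited gene tables as every protein-coding gene whose name consists of HOX, a cluster letter from A to D and a number. This gave 38 of the 58735 genes listed, with 11 genes in cluster A, 9 in cluster B, 9 in cluster C and 9 in cluster D, and 1 further HOX gene of cluster B was not part of the selection. RNA-seq was performed on DU145, a line from human prostate cancer that does not need androgen for growth. The 3 libraries comprised 1 control and 2 labelled PD-L1 knockdown. The methods name the knockdown cells PD-L1sh1/2, which points to 2 shRNAs, but list the sequence of only 1. According to the methods of the study, shRNA was delivered by a lentiviral pLKO.1 vector, and the control cells for the knockdown carried the empty vector. Puromycin was used to select stable cells. The libraries labelled knockdown thus come from selected pools of cells, it is not stated whether the sequenced control carried the empty vector, and the control has no replicate. The comparison asked which genes differ in level when PD-L1 is targeted in castration-resistant cells.

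HOX genes encode homeodomain transcription factors that give cells their position along the head-to-tail axis of the embryo, and adult cells usually keep the HOX pattern of the place they came from. In each cluster the genes lie in a fixed order, and genes at corresponding places in different clusters are called a paralog group, numbered from the 3′ end, which is used in the head, to the 5′ end, which is used in the trunk, limbs and genital tract. HOX proteins bind DNA together with cofactors such as the PBX and MEIS proteins. Polycomb proteins keep HOX clusters silent, Trithorax proteins keep them active, and retinoic acid switches on the genes of the 3′ end.

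The count totals were between 14733088 and 15786457, and a count of 0 allows a level of up to 0.190 to 0.204 CPM (counts scaled to the library total; 3 counts, counting error only). CD274, which encodes PD-L1, had 204 counts in the control and 213 and 224 in the libraries labelled knockdown 1 and knockdown 2. Its RNA was therefore not lower in the libraries labelled knockdown, and all 3 libraries are named by their labels below. The study checked PD-L1 protein in its DU145 knockdown cells by western blot, and RNA counts do not measure protein. Of 6 epithelial markers, KRT8, KRT18, KRT19, EPCAM and CDH1 had at least 755 counts in each library and KRT5 had 0. Of 7 prostate luminal markers, 6 had 0 counts in every library, among them KLK2, KLK3, TMPRSS2, FOLH1 and ACPP, and 1 was well counted, at a mean of 6.92 FPKM. The thyroid and lung transcription factor NKX2-1 had 1833, 2118 and 2590 counts (log2 fold change 0.31 ± 0.12, adjusted p = 0.268, edgeR), and the series text names a thyroid line in place of DU145. FOXE1, another thyroid transcription factor, had 738, 645 and 720 counts, while TG and TSHR, which mark the differentiated thyroid cell, had at most 15. The thyroid marker PAX8 had 13, 28 and 29 counts, and of 6 immune and 6 stromal and endothelial markers only COL1A1, with 101, 98 and 149 counts, had more than 15 in any library. Their part in the HOX levels was not tested.

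The DNA-binding part of each HOX protein is encoded by a 180-base homeobox, and the homeoboxes below show how alike the genes of a paralog group are, which matters for assigning short reads to them. They are sequences of group 9, which had the highest summed HOX level, and of HOXB6 beside a paralog. All were read from GENCODE transcripts of GRCh38. In each set the first sequence is the best counted gene, and capitals in the others mark bases that differ from it. For group 9 the reference is HOXB9, at chr17:48622921-48623100 on the minus strand. The printed paralogs lie at chr12:54002465-54002644 (plus strand, HOXC9) and chr2:176123969-176124148 (plus strand, HOXD9).
HOXB9: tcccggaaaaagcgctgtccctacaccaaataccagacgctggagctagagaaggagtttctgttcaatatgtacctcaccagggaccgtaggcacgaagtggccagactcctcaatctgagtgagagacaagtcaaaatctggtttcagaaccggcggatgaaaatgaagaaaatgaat
HOXC9: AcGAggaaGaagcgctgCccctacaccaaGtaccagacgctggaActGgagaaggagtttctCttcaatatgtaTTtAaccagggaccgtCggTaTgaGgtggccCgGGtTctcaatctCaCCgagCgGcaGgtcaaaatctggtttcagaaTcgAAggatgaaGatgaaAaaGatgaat
HOXD9: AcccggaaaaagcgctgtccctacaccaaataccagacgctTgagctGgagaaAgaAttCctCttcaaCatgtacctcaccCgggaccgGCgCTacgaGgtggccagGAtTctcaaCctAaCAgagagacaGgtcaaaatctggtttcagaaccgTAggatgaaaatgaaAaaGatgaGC
HOXC9 differed from HOXB9 at 32 bases and HOXD9 at 28. HOXA9, the other gene of group 9, is not printed and differed at 30. HOXB6 lies at chr17:48596473-48596652 on the minus strand, and HOXC6 at chr12:54029675-54029854 on the plus strand.
HOXB6: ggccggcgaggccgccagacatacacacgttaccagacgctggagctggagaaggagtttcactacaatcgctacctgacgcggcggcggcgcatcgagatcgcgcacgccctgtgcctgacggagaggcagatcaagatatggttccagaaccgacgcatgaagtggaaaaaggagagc
HOXC6: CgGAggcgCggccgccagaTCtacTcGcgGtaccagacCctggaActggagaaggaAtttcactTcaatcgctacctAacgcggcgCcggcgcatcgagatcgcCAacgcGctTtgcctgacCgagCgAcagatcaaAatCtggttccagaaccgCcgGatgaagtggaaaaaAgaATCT
HOXC6 differed from HOXB6 at 31 bases, and HOXA6, which is not printed, at 24. A homeobox of 180 bases was found in a single exon of each of the 38 genes. Over the 39 pairs of genes from the same paralog group, 70.6% to 90.6% of the bases were identical (median 81.7%), against a median of 61.1% over the 664 other pairs. The longest stretch shared without a difference by any pair was 51 bases.

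**Figure D1:**
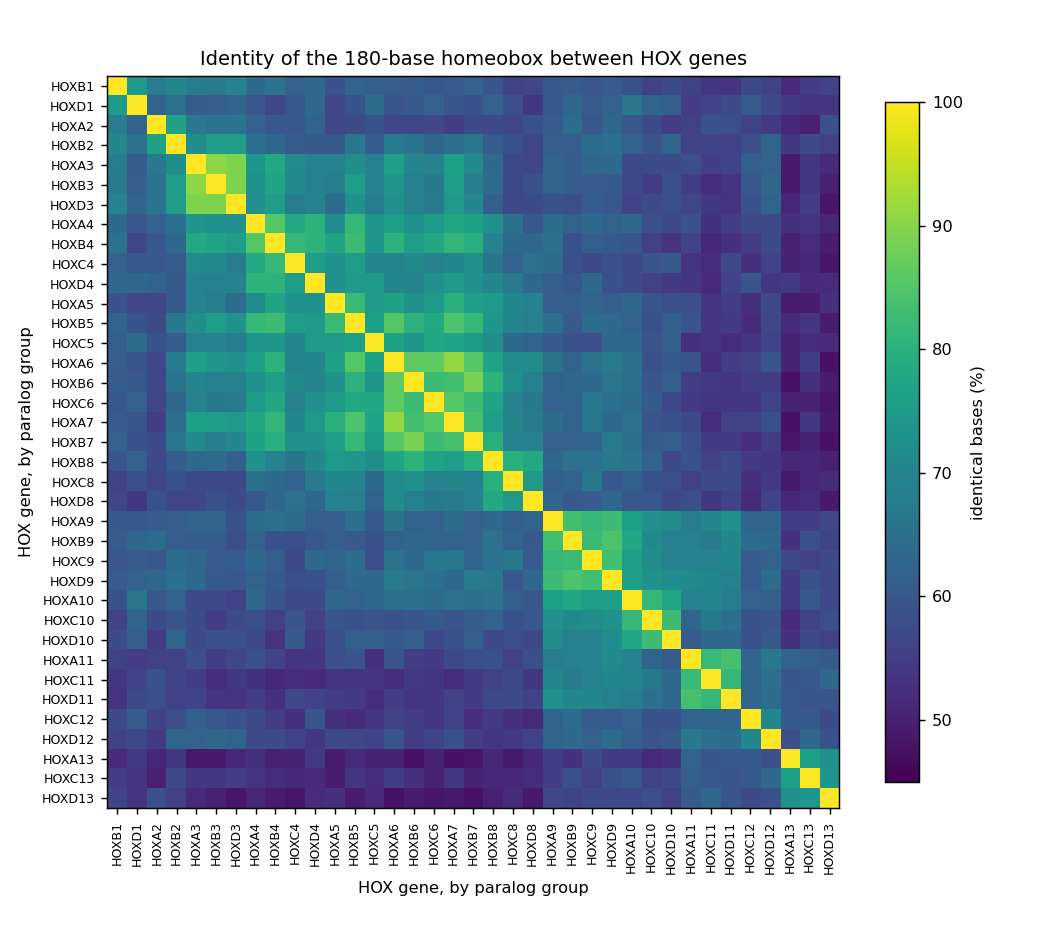
Share of identical bases (%, colour) between the 180-base homeoboxes of pairs of HOX genes, ordered by paralog group on both axes. The bright blocks along the diagonal are paralog groups, whose pairs share 70.6% to 90.6% of their bases; pairs of neighbouring groups such as HOXA6 and HOXA7 can be as alike, with up to 91.1% over the pairs from different groups.

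Between them the HOX genes took 3565, 3618 and 3950 counts (control, labelled knockdown 1 and labelled knockdown 2, in this order here and below), or 242, 245 and 250.2 CPM. The ratio of this sum to the control was 1.01 (exact 95% counting interval 0.968 to 1.06) and 1.03 (0.988 to 1.08), so the summed HOX level of neither library differed from the control beyond counting error. Such ratios and intervals compare libraries, not conditions. They cover only the error of counting reads, and reads copied by PCR are not independent molecules. In bulk RNA, fewer cells with a transcript and less of it in each cell cannot be told apart. Of the 38 genes, 30, 31 and 31 had at least 1 count in the 3 libraries, and 6 had 0 in all of them, namely HOXB1, HOXD4, HOXD10, HOXD11, HOXD12 and HOXD13.

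Levels of different genes were compared as FPKM, the count scaled to the listed gene length and to the depth of the library, which the authors deposited beside the counts. Of the HOX genes, 18 reached 1 FPKM in every library (47.4%), against 30 of 153 other homeobox genes (19.6%) and 53.2% of all protein-coding genes. HOXB7 had the highest mean level of the members, above 85.0% of protein-coding genes. The 5 highest members held 51.3%, 52.2% and 52.5% of the summed HOX FPKM, and the 10 highest held 76.2%, 75.1% and 77.3%. In the order of mean FPKM, HOXB7 stood above all other members with no overlap between its 3 values and theirs. The listed length of a member covers the exon bases of all its transcripts, so this order also depends on the annotation. In counts, which are not scaled to length, HOXB9 (468, 406 and 445) and HOXB6 (328, 423 and 515) stood above HOXB7 (320, 355 and 392). The 3 values are not replicates, so overlap here is only a description. HOXB9 and HOXB6 followed and overlapped each other, as did the next block of HOXB5, HOXC10, HOXA3 and HOXC9, in which each gene overlapped its neighbour. HOXA5 stood alone below that block, and HOXC13, HOXA10 and HOXC8 formed the next group of overlapping neighbours. From HOXB8 downwards each member overlapped the next one in the order.

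**Figure D2:**
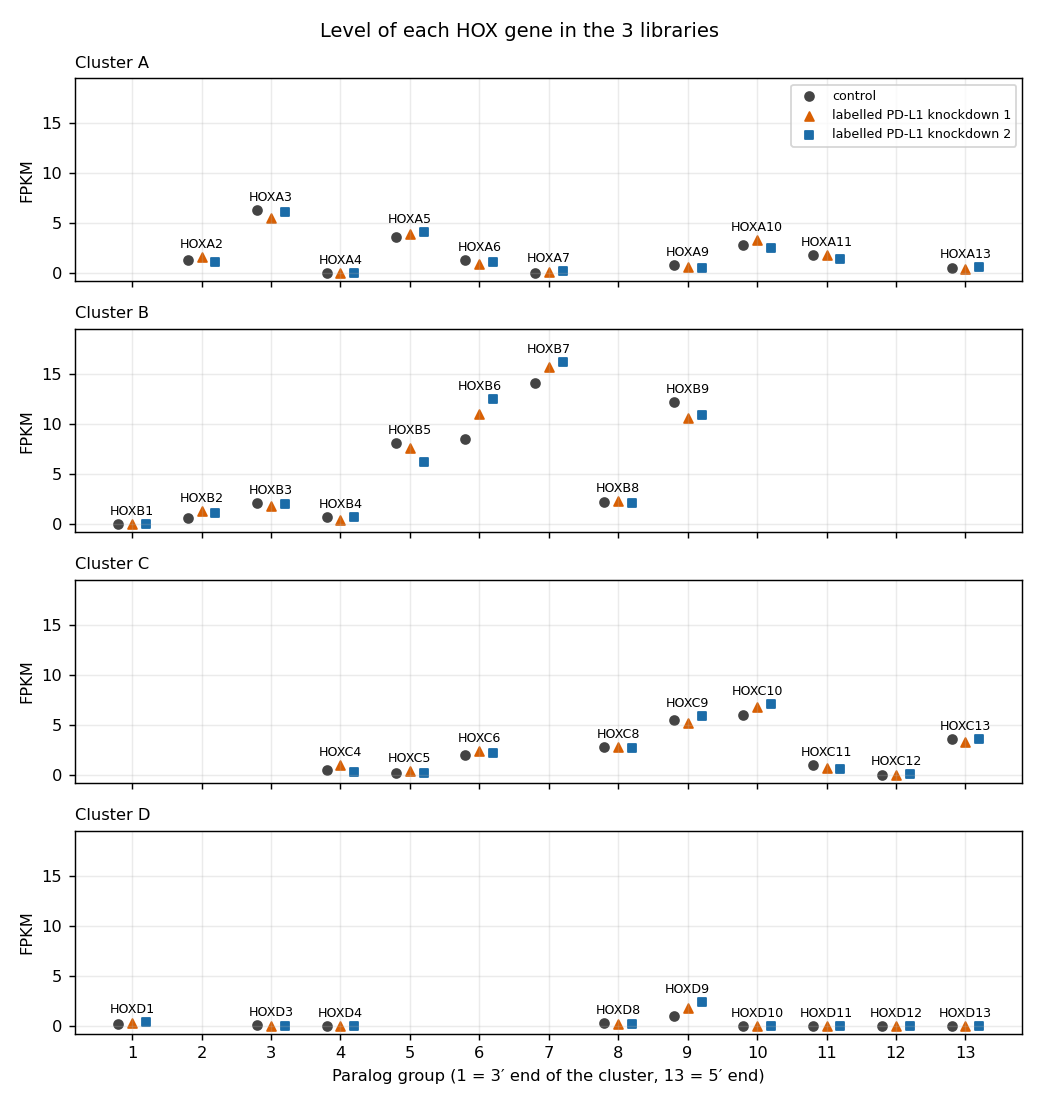
FPKM (linear axis) of the HOX genes by cluster (panels) and paralog group (horizontal axis), with 1 point for each library. The middle of cluster B stands highest, with HOXB7 between 14.1 and 16.2 FPKM, and in cluster D only HOXD9 reached 1 FPKM in every library; positions with no point hold no gene or a gene not shown.

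Cluster B (chr17:48528526-48633572, minus strand) carried the largest share of HOX RNA, with 51.1%, 51.4% and 51.4% of the summed FPKM in the 3 libraries. HOXB7, often studied as a growth-promoting HOX gene in carcinomas, had 320, 355 and 392 counts, or 14.1, 15.7 and 16.2 FPKM. Its ratio to the control was 1.11 (0.951 to 1.29) and 1.14 (0.984 to 1.33), with log2 fold change 0.18 ± 0.18 (SE), so all 3 libraries lay within counting error of each other. HOXB9, a gene of the thoracic region that also takes part in mammary gland development, had 468, 406 and 445 counts (12.2, 10.6 and 10.9 FPKM). It was lower in both libraries labelled knockdown, with ratios of 0.867 (0.757 to 0.993) and 0.887 (0.778 to 1.01) and log2 fold change -0.18 ± 0.16, and only the interval of the first library left out 1. HOXB6, known from blood progenitors, had 328, 423 and 515 counts (8.48, 11.0 and 12.5 FPKM). Its control value was the lowest of the 3 and is taken up again below.

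HOXB5, which acts in the developing lung and in blood vessels, had 247, 231 and 201 counts (8.15, 7.66 and 6.23 FPKM), with log2 fold change -0.24 ± 0.20. Its ratio was 0.935 (0.778 to 1.12) in the library labelled knockdown 1 and 0.759 (0.627 to 0.919) in the library labelled knockdown 2, so the latter alone lay below the control beyond counting error. HOXB8, which is needed in the blood lineage that gives rise to some microglia, had 69, 71 and 69 counts (2.27, 2.34 and 2.13 FPKM). HOXB8 was level across the libraries, with ratios of 1.03 (0.728 to 1.45) and 0.933 (0.659 to 1.32) and log2 fold change -0.02 ± 0.32. HOXB3, a hindbrain gene, had 234, 198 and 237 counts (2.11, 1.80 and 2.01 FPKM). The ratios were 0.846 (0.696 to 1.03) and 0.945 (0.786 to 1.14) and the log2 fold change was -0.15 ± 0.20, so HOXB3 did not differ beyond counting error either.

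The remaining genes of cluster B lay lower. HOXB2, which patterns the hindbrain segment that forms the facial nerve, had 23, 47 and 41 counts (0.663, 1.36 and 1.11 FPKM). Its ratio was 2.04 (1.22 to 3.52) and 1.66 (0.975 to 2.90), with log2 fold change 0.89 ± 0.46. Both libraries labelled knockdown were above the control, but the fitted difference missed an unadjusted p of 0.05 (adjusted p = 0.432, edgeR), which it passed when genes with at least 1 count over the 3 libraries were fitted. HOXB4, which promotes self-renewal of blood stem cells, had 43, 25 and 45 counts. Only the library labelled knockdown 1 was low, at a ratio of 0.581 (0.340 to 0.973) against 0.977 in the other. HOXB1, the most 3′ gene of the cluster and a gene of the early hindbrain, had 0 counts in all 3 libraries.

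Cluster A (chromosome 7, minus strand) held 24.8%, 23.5% and 23.2% of the summed HOX FPKM, and 6 of its 11 genes reached 1 FPKM in every library. HOXA3, required for the thymus, parathyroid and thyroid in the embryo, had 406, 352 and 418 counts (6.35, 5.53 and 6.14 FPKM). HOXA3 did not separate the groups, with ratios of 0.867 (0.749 to 1.00) and 0.961 (0.836 to 1.10) and log2 fold change -0.13 ± 0.17. HOXA5, which acts in the lung and the breast, had 93, 100 and 111 counts (3.67, 3.96 and 4.12 FPKM). The HOXA5 ratios of 1.07 (0.802 to 1.44) and 1.11 (0.838 to 1.48), with log2 fold change 0.13 ± 0.27, kept all libraries within counting error.

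HOXA10, which shapes the uterus and the male accessory glands, had 158, 185 and 149 counts (2.87, 3.38 and 2.54 FPKM). The libraries labelled knockdown lay on opposite sides of the control, at ratios of 1.17 (0.941 to 1.46) and 0.880 (0.699 to 1.11), and the log2 fold change was 0.04 ± 0.22. HOXA11, a gene of the forearm, kidney and uterus, had 63, 62 and 54 counts (1.84, 1.82 and 1.48 FPKM). Neither ratio of HOXA11, 0.984 (0.682 to 1.42) or 0.800 (0.546 to 1.17), left counting error, and the log2 fold change was -0.16 ± 0.34. HOXA2, which gives the hyoid arch its identity, had 50, 61 and 44 counts (1.37, 1.68 and 1.13 FPKM). The HOXA2 ratios of 1.22 (0.825 to 1.81) and 0.821 (0.535 to 1.26) again had opposite directions, with log2 fold change 0.03 ± 0.36.

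Below 1 FPKM in at least 1 library, HOXA6 had 26, 18 and 24 counts and HOXA9, which is active in blood progenitors and in acute leukaemia, had 40, 30 and 27. HOXA13, a gene of the hand, foot and genital tract, had 43, 32 and 51 counts, and HOXA7 had 2, 6 and 10. HOXA7 had the largest fitted change of the members, with log2 fold change 1.88 ± 1.28 (adjusted p = 0.590, edgeR), but its ratios of 3.0 (0.536 to 30.4) and 4.67 (0.994 to 43.8) both had intervals that held 1. HOXA4 had 0, 1 and 1 counts and was not tested. No member of cluster A left counting error in either library labelled knockdown.

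Cluster C (chr12:53938765-54056030, plus strand) held 22.6%, 22.9% and 22.5% of the summed HOX FPKM, and its level lay towards the 5′ side. HOXC10, which marks motor neurons of the hindlimb level, had 208, 234 and 263 counts (6.01, 6.79 and 7.14 FPKM). It was higher in both libraries labelled knockdown, but within counting error, with ratios of 1.12 (0.929 to 1.36) and 1.18 (0.980 to 1.42) and log2 fold change 0.21 ± 0.20. HOXC9, which sets the identity of thoracic motor neurons, had 136, 129 and 156 counts (5.46, 5.2 and 5.88 FPKM). Its ratios were 0.948 (0.739 to 1.22) and 1.07 (0.845 to 1.36), with log2 fold change 0.02 ± 0.23. HOXC13, which controls hair and nail keratins, had 129, 119 and 136 counts (3.59, 3.32 and 3.55 FPKM). HOXC13 was as even, with ratios of 0.922 (0.713 to 1.19) and 0.984 (0.768 to 1.26) and log2 fold change -0.06 ± 0.24.

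HOXC8, a gene of the brachial spinal cord, had 79, 78 and 81 counts (2.82, 2.79 and 2.71 FPKM). The HOXC8 ratios were 0.987 (0.712 to 1.37) and 0.957 (0.693 to 1.32), with log2 fold change -0.04 ± 0.30. HOXC6, a gene often measured in prostate cancer, had 107, 124 and 124 counts (2.04, 2.37 and 2.22 FPKM). Both of its ratios, 1.16 (0.887 to 1.51) and 1.08 (0.828 to 1.41), were above 1 but within counting error, and the log2 fold change was 0.17 ± 0.25. HOXC11 had 47, 36 and 32 counts and HOXC5 had 5, 12 and 6. HOXC12 had 0, 1 and 3 counts and was not tested.

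HOXC4, the most 3′ gene of cluster C, had 20 counts in the control, 42 under the label knockdown 1 and 13 under the label knockdown 2. The libraries labelled knockdown lay on either side of the control, at ratios of 2.1 (1.21 to 3.77) and 0.607 (0.277 to 1.28). The ratio of the second to the first was 0.289 (0.142 to 0.549), the largest distance between them among the members, while the fitted mean difference from the control was 0.43 ± 0.53 on the log2 scale. Transcripts of HOXC4 and HOXC6 overlap on the same strand, and HOXC6 shares the most 31-base stretches with HOXC4 (16.9% of those in HOXC4). HOXC6 had 107, 124 and 124 counts, and the part of shared reads in the HOXC4 counts was not tested.

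Cluster D (chr2:176092891-176190907, plus strand) was the lowest, with 44, 62 and 89 counts in all. Its ratio to the control was 1.41 (0.942 to 2.12) in the library labelled knockdown 1 and 1.89 (1.30 to 2.77) in the library labelled knockdown 2. This came from HOXD9, because the other members of the cluster together had 16, 13 and 18 counts, with ratios of 0.812 (0.359 to 1.80) and 1.05 (0.505 to 2.20). HOXD1, a gene of pain-sensing neurons, had 5, 7 and 12 counts, and HOXD8 had 9, 6 and 6. HOXD3 had 2, 0 and 0 counts. The 5′ genes HOXD10 to HOXD13, which build the limbs and the genital tract, had none, whereas HOXA10, HOXC10, HOXA13 and HOXC13 of the same paralog groups were counted in every library.

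By paralog group, group 9 had the highest summed level with 19.6, 18.3 and 19.8 FPKM, carried mainly by HOXB9 and HOXC9. Group 7 followed in every library with 14.2, 15.9 and 16.5 FPKM, nearly all of it from HOXB7. Group 6 had 11.9, 14.3 and 15.9 FPKM, and HOXB6 was its main member. Group 5 had 12.01, 12.07 and 10.6 FPKM, from HOXB5 and HOXA5. Group 12, which consists of HOXC12 and HOXD12, was lowest, at 0 to 0.0569 FPKM. Group 2, whose genes HOXA2 and HOXB2 act in the head, summed to 2.03, 3.04 and 2.24 FPKM.

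In the comparison of the libraries labelled PD-L1 knockdown with the control, 29 HOX genes had at least 10 counts over the 3 libraries and were tested with edgeR's quasi-likelihood test across 19849 genes. At a Benjamini-Hochberg adjusted p under 0.05, 0 of the 29 were called, against 0.353% of all genes tested. At an unadjusted p under 0.05 edgeR gave 2 of 29 (6.90%), against 11.7% of all genes, and DESeq2 gave 0 of 29 at either threshold, with 2.29% of all genes at its unadjusted p. Adding a log2 fold change beyond 1 in either direction left 1 of 29 (3.45%) against 2.48% of all genes, and that gene was HOXD9. Fitted changes were above 0 in 15 members and below 0 in 14, with a median of 0.02 on the log2 scale, beside 0.00 over all genes tested. The HOX genes were counted less deeply than other tested genes, with a median of 69.7 counts per library against 150.7, which widens their intervals.

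HOXD9, a gene of the trunk and limbs, had 28 counts in the control, 49 under the label knockdown 1 and 71 under the label knockdown 2, or 1.01, 1.77 and 2.40 FPKM. Both libraries labelled knockdown were above the control beyond counting error, at ratios of 1.75 (1.08 to 2.89) and 2.37 (1.51 to 3.81), and they did not differ from each other beyond it (ratio 1.35, 0.927 to 1.99). The fitted log2 fold change was 1.04 ± 0.40 (adjusted p = 0.255, edgeR), so HOXD9 passed the unadjusted threshold and not the adjusted one. With each library labelled knockdown alone the change was 0.81 and 1.24. HOXD9 has a single transcript of 1870 bases, and no other annotated gene covers its exons on either strand. HOXD9 shares 0.543% of its 31-base stretches with another gene (HOXB9), and the part of such reads in its counts was not tested. Its GC content of 62.7% is above the median of 54.2% of the tested members and of 48.5% of all genes tested, and with the trends of level with gene length and GC content removed its log2 fold change was 0.75, short of both thresholds. With DESeq2 the log2 fold change was 1.05, and both the unadjusted and the adjusted threshold were missed (unadjusted p = 0.124, DESeq2 Wald test).

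HOXB6 had the smallest p of the members. Its counts of 328, 423 and 515 gave ratios to the control of 1.29 (1.11 to 1.49) and 1.47 (1.27 to 1.69), and the libraries labelled knockdown did not differ from each other beyond counting error (ratio 1.14, 0.998 to 1.30). The log2 fold change was 0.47 ± 0.17 (adjusted p = 0.232, edgeR), below the fold threshold of 1. Transcripts of HOXB3 cover 16.6% of its exon bases on the same strand and those of the antisense RNA HOXB-AS3 cover 16.3% on the opposite strand. HOXB3 had 234, 198 and 237 counts and HOXB-AS3 had 156, 164 and 198, and the part of overlapping reads in the HOXB6 counts was not tested. After removal of the length and GC trends the HOXB6 change was 0.30 and no longer had an unadjusted p under 0.05, and 2 other members of cluster B then had an unadjusted p under 0.05, namely HOXB5 and HOXB9 (2 of 29, against 7.39% of all genes in that fit).

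**Figure D3:**
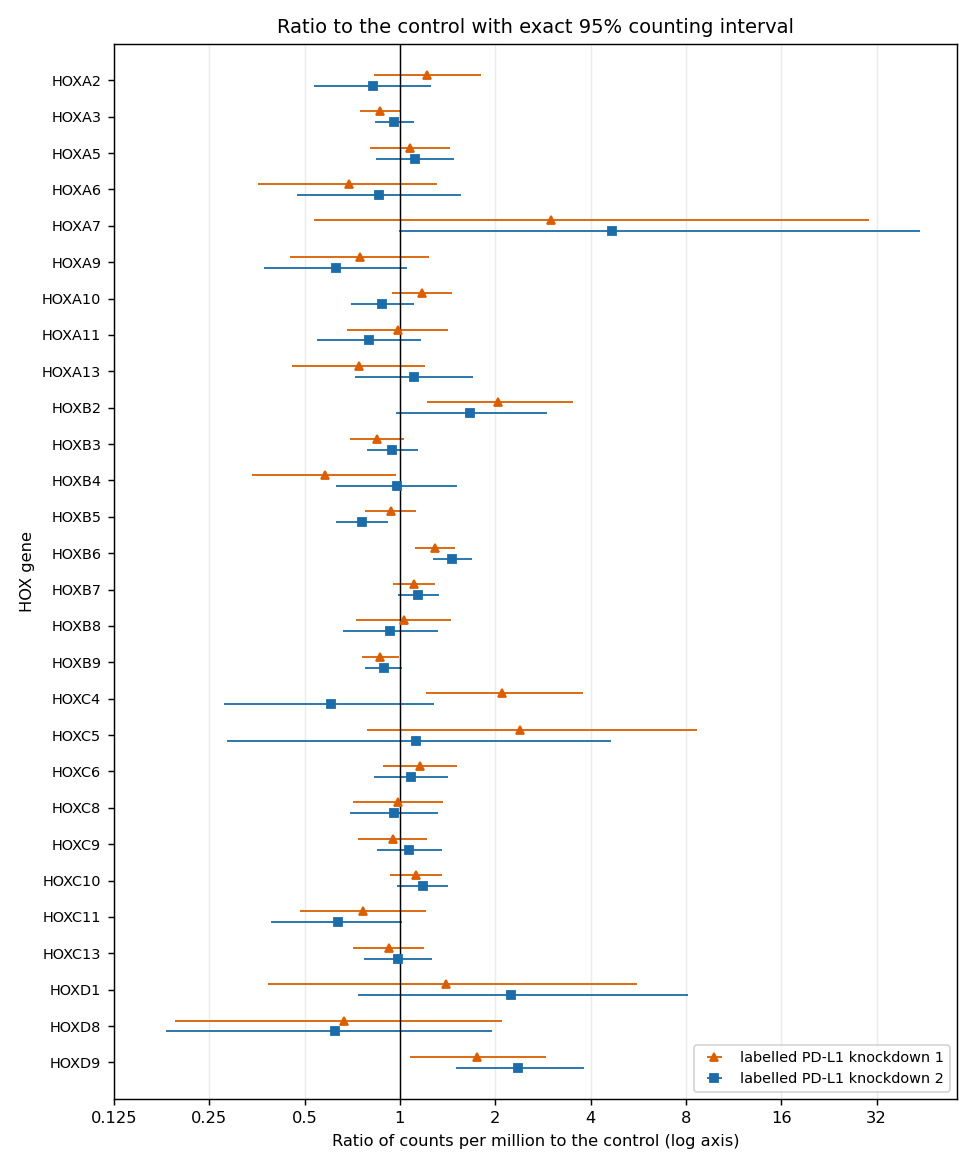
Ratio of CPM to the control (log axis) for tested HOX genes in the library labelled PD-L1 knockdown 1 (triangles) and 2 (squares), with exact 95% counting intervals as bars. HOXB6 and HOXD9 were the genes with both intervals above 1, the points of HOXC4 lie on opposite sides of 1, and the wide bars of HOXA7, HOXC5, HOXD1 and HOXD8 belong to genes with at most 12 counts in a library.

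Counting error alone was also set against the distance of each library from the control. In the library labelled knockdown 1 the interval left out 1 for 6 of 29 members (20.7%; HOXB2, HOXB4, HOXB6, HOXB9, HOXC4 and HOXD9), against 29.1% of all genes tested. The library labelled knockdown 2 gave 3 of 29 (10.3%; HOXB5, HOXB6 and HOXD9), against 38.2% of all genes. Between the libraries labelled knockdown it was 4 of 29 (13.8%; HOXA10, HOXB4, HOXB5 and HOXC4), against 26.3%. Beyond counting error on the same side of the control in both libraries were 2 of 29 members (6.90%), HOXB6 and HOXD9, against 19.1% of all genes. Both ratios share the control library, and the fit used the same counts. All these shares depend on depth, and tested members had a median of 69.7 counts per library against 150.7 for all genes tested.

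**Figure D4:**
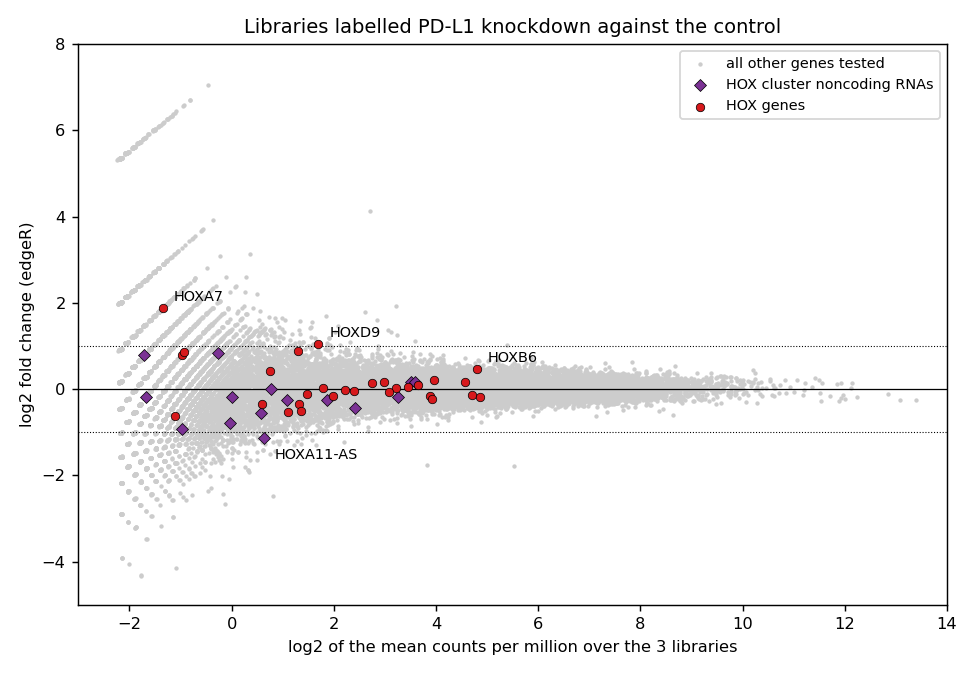
Log2 fold change (edgeR) of both libraries labelled knockdown over the control (vertical axis) by the log2 of the mean CPM over the 3 libraries (horizontal axis), for HOX genes (red), HOX cluster noncoding RNAs (purple) and all other genes tested (grey); dotted lines mark log2 changes of 1 and -1, and 1 grey gene lies outside the plotted range. The HOX genes with more counts lie close to 0, HOXD9 lies just above the upper line, and HOXA7, beyond it, is at a level where grey points spread far to both sides.

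Several HOX genes overlap other genes of their cluster, and it is not stated whether reads were counted by strand, so the counts of an overlapping pair cannot be fully separated. Exons of the antisense RNA HOXA-AS3 cover 62.5% of the exon bases of HOXA7 and 39.3% of those of HOXA6. Other genes on the same strand cover 62.2% of HOXD3 and 80.5% of HOXD4, and genes on the opposite strand cover 58.1% of HOXD1. For HOXC5 the same-strand share is 59.9%, from AC012531.2 and from a second annotated entry that is also named HOXC5. Among members of at least 1 FPKM in every library, HOXA2, HOXA5, HOXB7, HOXB8, HOXB9, HOXC8 and HOXD9 have no exon base under another gene. The same holds for HOXC11 and HOXD8, which lay lower, and for HOXB1, HOXC12, HOXD12 and HOXD13, which were not tested. The members without overlap thus include the one highest by FPKM, HOXB7, as well as HOXD9.

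The clusters also produce noncoding RNAs, some of which are known to act on HOX chromatin. Of 27 such genes in the list, 24 were in the tables and 15 had enough counts to be tested. With edgeR, 0 of the 15 were called at the adjusted p (0.353% of all genes). At an unadjusted p under 0.05 edgeR gave 1 (6.67%, against 11.7% of all genes). The same gene passed the fold threshold (6.67%, against 2.48% of all genes). DESeq2 gave 0 at each of these thresholds, with 2.29% of all genes at its unadjusted p. The median log2 fold change of the 15 was -0.19. The gene past the fold threshold was HOXA11-AS, transcribed opposite to HOXA11, with 36 counts in the control and 15 and 19 in the libraries labelled knockdown. Both of its ratios, 0.417 (0.212 to 0.780) and 0.493 (0.267 to 0.882), were below 1 beyond counting error. The log2 fold change was -1.13 ± 0.51 (adjusted p = 0.361, edgeR). It overlaps 31.1% of the exon bases of HOXA11, and its FPKM was 42.1% of that of HOXA11 in the control and 17.8% and 26.0% in the libraries labelled knockdown.

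HOTAIRM1, which starts at the 3′ side of cluster A and is known from myeloid differentiation, had 96, 74 and 71 counts (4.32, 3.35 and 3.0 FPKM). Its ratios were 0.771 (0.561 to 1.05) and 0.690 (0.501 to 0.948), with log2 fold change -0.45 ± 0.29 (adjusted p = 0.561, edgeR), so the library labelled knockdown 2 alone was lower beyond counting error. HOTAIR, the HOXC transcript studied with the Polycomb complex, had 35, 31 and 30 counts, with ratios of 0.885 (0.528 to 1.48) and 0.800 (0.474 to 1.34). HOXB-AS3 had the highest level of these RNAs, at 5.49, 5.80 and 6.55 FPKM, with log2 fold change 0.17 ± 0.22.

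HAGLR, from the 3′ side of cluster D, had 164, 184 and 193 counts, more than all HOXD genes together in every library. In cluster A, HOXA-AS2 had 154, 117 and 162 counts, HOXA10-AS had 20, 11 and 13 and HOXA-AS3 had 8, 10 and 20. Cluster B gave 28, 20 and 19 counts for HOXB-AS1 and 16, 16 and 13 for HOXB-AS2. HOXC-AS1 had 25, 22 and 30 counts, HOXC-AS2 had 61, 48 and 57, HOXC-AS3 had 5, 6 and 3 and HOXC13-AS had 11, 4 and 8. In cluster D, HOXD-AS2 had 3, 4 and 7. HOTTIP, which lies beyond HOXA13 and works through WDR5, had 4, 0 and 4 counts, and HAGLROS and HOXB-AS4 had at most 2. The precursor genes of 6 microRNAs in the clusters (MIR10A, MIR10B, MIR196A1, MIR196A2, MIR196B and MIR615) had 0 counts in each library, in RNA selected for poly(A) tails.

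Of 13 genes for HOX cofactors and partners, 12 were tested, and their median log2 fold change was -0.07. At an unadjusted p under 0.05 edgeR gave 0 (11.7% of all genes) and DESeq2 gave 0 (2.29% of all genes). None was therefore called at the adjusted p. With the length and GC trends removed 1 of the 12, MEIS2, had an unadjusted p under 0.05 (7.39% of all genes in that fit). The highest levels were those of HMGB1, a DNA-bending protein, with 4737, 4668 and 4359 counts, and of GMNN, which encodes geminin, a protein that binds HOX and Polycomb proteins, with 781, 732 and 696. Among the cofactors that bind DNA with HOX proteins, PBX2 had 1080, 1099 and 1206 counts and PBX3 had 816, 802 and 804, both close to level. Of the MEIS genes MEIS2 was the best counted, with 242, 282 and 340 counts, against 26, 24 and 30 for MEIS1 and 24, 33 and 53 for MEIS3. The related gene PKNOX2 had 0 counts throughout.

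All 31 Polycomb genes were tested, with 0 at the adjusted p, 5 at an unadjusted p under 0.05 (16.1%, against 11.7% of all genes) and 0 past the fold threshold (edgeR). At an unadjusted p under 0.05 DESeq2 gave 2 (2.29% of all genes), with 0 at the adjusted p, and edgeR with the length and GC trends removed gave 2 (7.39% of all genes). RING1, the ubiquitin ligase of the PRC1 complex, had 730, 991 and 1112 counts, with log2 fold change 0.48 ± 0.14 and the smallest adjusted p of these lists (0.0983, edgeR). Removal of the length and GC trends lowered this change to 0.19. CBX6, a PRC1 reader protein, was also higher, with 1788, 2141 and 2482 counts. SUZ12, a core subunit of PRC2, had 1828, 1730 and 1329 counts, and PCGF5 (1950, 1701 and 1618) and PHC3 (1927, 1645 and 1606) were likewise below the control. The best counted per length were BMI1 and RING1, at mean levels of 42.4 and 34.2 FPKM.

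The 29 Trithorax-group, demethylase and elongation genes were all tested, with 0 at the adjusted p, 7 at an unadjusted p under 0.05 (24.1%, against 11.7% of all genes) and 0 past the fold threshold (edgeR), whereas DESeq2 gave 0 at each of them. With the length and GC trends removed edgeR gave 1 at an unadjusted p under 0.05 (7.39% of all genes), namely DPY30. KMT2B, a histone methyltransferase, had 1413, 1605 and 1915 counts, DPY30 had 350, 445 and 482, KDM6B had 455, 540 and 632 and DOT1L had 1054, 1138 and 1497. These 4 were higher in both libraries labelled knockdown, whereas PSIP1 (1790, 1571 and 1551), KDM6A (372, 278 and 317) and AFF4 (3713, 3224 and 3217) were lower. KDM6A and KDM6B, both demethylases of the Polycomb mark, thus lay on opposite sides of the control. RAD21, a cohesin subunit, and HCFC1 had the highest mean levels, 51.7 and 37.1 FPKM.

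Of 21 retinoic acid genes 16 were tested, with 0 at the adjusted p (edgeR and DESeq2 alike). At an unadjusted p under 0.05 edgeR gave 1 (6.25%, against 11.7% of all genes). DESeq2 also gave 1, against 2.29% of all genes. RARA, a retinoic acid receptor, had 382, 488 and 614 counts, with log2 fold change 0.48 ± 0.17 (adjusted p = 0.199, edgeR), which became 0.27 and lost its unadjusted call with the length and GC trends removed. The corepressor NRIP1 had 3104, 2650 and 2850 counts. RARB, itself a target of retinoic acid, had 0, 3 and 1 counts and CYP26A1, the enzyme that breaks retinoic acid down, had 12, 11 and 11. Among 11 upstream regulators 4 were tested and 0 had an unadjusted p under 0.05 (edgeR and DESeq2, against 11.7% and 2.29% of all genes). GBX2 had 45, 45 and 21 counts, and CDX1, CDX2 and CDX4, which switch on the middle HOX groups in the embryo, had 0 counts in every library.

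**Figure D5:**
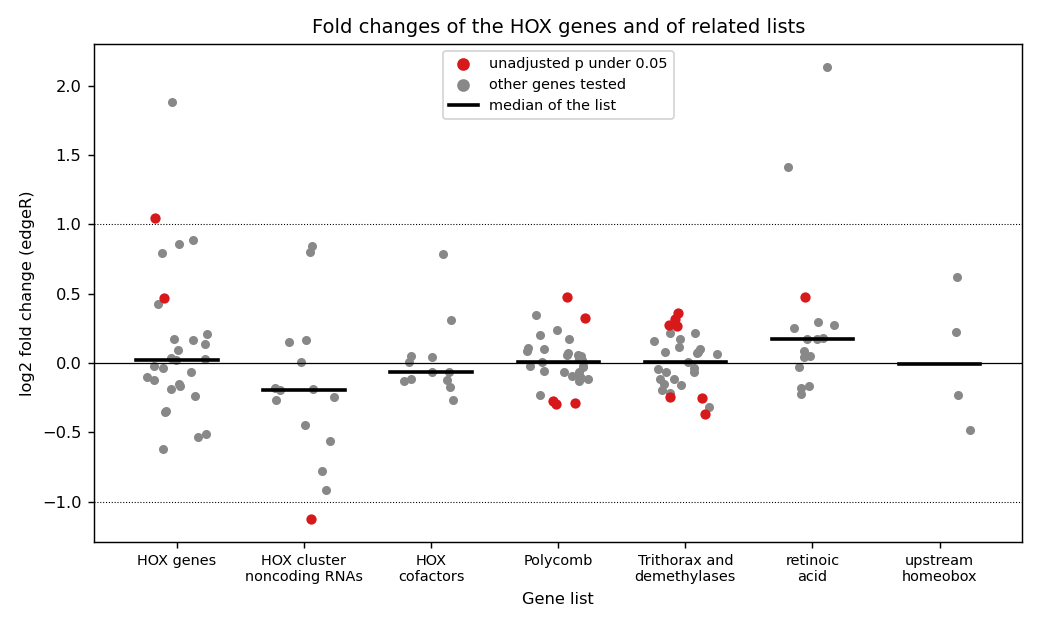
Log2 fold change (edgeR; 1 point a gene) of the tested HOX genes and of 6 related gene lists, with genes at an unadjusted p under 0.05 in red and the median of each list as a black bar. The medians lie near 0, from -0.19 for the HOX cluster noncoding RNAs to 0.17 for the retinoic acid genes, and only HOXD9 and HOXA11-AS are red beyond the dotted lines at 1 and -1.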

How the data were processed

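RNA-seq libraries of DU145 cells (1 control, 2 labelled PD-L1 knockdown) were used as deposited. The authors deposited, for each library, unnormalized read counts on 58735 genes and FPKM, and each FPKM was checked to equal the count over the length given for the gene and over 1 constant per library (tolerance 1e-05). The submitters' processing notes list Bowtie2 2.0.6, TopHat2 2.0.9, Cufflinks 2.1.1 and Cuffdiff 2.1.1 without roles, and the use of strand is not stated. The labels and the paper name different media. The heading of the control counts names the gene RBM45, and the reason is not stated. RBM45 had 150 counts in the control and 160 and 152 in the libraries labelled knockdown 1 and 2. Its ratios to the control were 1.07 (0.848 to 1.34) and 0.946 (0.750 to 1.19).

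Genes with at least 10 counts over the 3 libraries entered edgeR 4.0.16 under R 4.3.3 (TMM, quasi-likelihood F test, Benjamini-Hochberg adjustment over 19849 genes). The code was first tested on simulated data, with changes placed only in genes counted more deeply than most HOX members. Recovery at the depth of most HOX members was not tested. With 1 control the fit has 1 residual degree of freedom, and the common dispersion of 0.00719 reflects the spread between the libraries labelled knockdown. Nothing states that these are separate cultures, so p-values rest only on the spread between these libraries. The prior degrees of freedom of the fit were infinite, so each gene took its spread from a trend over all genes tested. The p and SE of a gene therefore do not measure how well the libraries labelled knockdown agree for that gene. Ratios of libraries used the count totals and exact 95% intervals. Totals per library were 14733088, 14738298 and 15786457. Alternatives were DESeq2 1.42.0, its size factors in edgeR, library totals, minimums of 1 and 30 counts, removal of length and GC trends (20 classes of each), and omission of each library labelled knockdown.

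Homeoboxes were found in the GENCODE transcripts of GRCh38, which places all 38 members where the count tables do, as 60 codons around a conserved stretch of the homeodomain. Shared sequence was measured over 31-base stretches of all transcripts. Members and gene lists were chosen with earlier results of these data known. Values of some members and listed genes are not reported here. The other members with at least 10 counts were named with their counts and those of at least 1 FPKM in every library in full. In the other lists the genes called and the 2 highest by mean FPKM were named, and further genes were named after their values were seen.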

Additional observations from a re-analysis of the deposited data

How the results depend on the processing

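Every alternative that gave a test kept 0 HOX genes at the adjusted p. HOXD9 passed the fold threshold in edgeR under either other scaling and either count minimum. The count of members past it was 0 with DESeq2 and 0 with the length and GC trends removed, against 1. With DESeq2 HOXD9 had a log2 fold change of 1.05 and an unadjusted p of 0.124 (Wald test). At a minimum of 1 count HOXB2 also had an unadjusted p under 0.05, which gave 3 members in place of 2. Over all genes the counts at the adjusted p and at the fold threshold were 70 and 492, against 6 and 46 with DESeq2, 32 and 497 with the trends removed, 51 and 530 at a minimum of 1 count and 17 and 264 at 30. Among the related lists 1 gene passed the fold threshold and 0 with DESeq2, against 2.48% and 0.232% of all genes tested. The median log2 fold change of the members, 0.02, was -0.022 at a minimum of 30 counts (25 members), -0.092 with the trends removed (0.01 over all genes), and between -0.030 and 0.014 with either library labelled knockdown omitted. Removing the trends reversed HOXA2 (-0.060), HOXA5 (-0.0035), HOXA10 (-0.092), HOXC9 (-0.20), HOXB-AS3 (-0.028), HOXC-AS1 (-0.23), HMGB1 (0.11), BMI1 (0.034) and HCFC1 (-0.051), none of which was called, and the cause was not tested. Without either library labelled knockdown 1 library stood against 1, so no counts of calls could be had. No paired analysis was possible because the control is a single library without a replicate number.

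The control without a replicate limits each comparison to counting error plus the spread between the libraries labelled knockdown. The 9 members with too few counts to be tested give no fold change.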
